A study of Homo sapiens with 6 samples.

Results

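The domains described here are stretches of chromatin carrying histone H3 trimethylated at lysine 4 (H3K4me3) that were at least 4 kb wide in metformin-treated H1299 cells and overlapped no stretch of that width in untreated cells. They were chosen by measured widths in both H3K4me3 peak lists, so their widths are a description and not a finding. The rule picked 750 of 1595 metformin intervals of 4 kb or more (47.0%), out of 53454 metformin intervals in all. In the other direction, 391 of 1236 control intervals of 4 kb or more (31.6%) overlapped no metformin interval of that width. A further 845 metformin domains were broad in both conditions.

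The cells, an established line from a human lung carcinoma of the non-small cell kind, were grown with no drug (control) or with metformin at 5 mM. Metformin is a biguanide prescribed to lower blood glucose, known to inhibit respiratory complex I and to activate the kinase AMPK. Chromatin was cross-linked, cut with micrococcal nuclease, precipitated with an antibody against H3K4me3 or H3K27me3 and sequenced. There was 1 library for each mark and condition, so no value below has a replicate error and no test between conditions could be made. Both conditions share the line and the passage range given in the labels, and how long metformin was applied is not given in the sources used here. The H1299 label was not checked against marker genes, because no gene positions on the lists' genome build were at hand.

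H3K4me3 is laid down by the SET1 and MLL family of methyltransferases and marks active promoters, usually over a short stretch around the start of transcription. At some genes the mark spreads over several kilobases. Such broad H3K4me3 domains are known for lying over genes that define a cell's identity and over tumour suppressor genes, and for high and steady transcription. H3K27me3 is the opposing mark of the Polycomb system, and promoters that carry both marks are called bivalent.

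The lists hold intervals and 1 deposited value per line, read as −log10 q of the peak call, and no read counts. Depth per library is therefore unknown. H3K4me3 intervals covered 49.4 Mb in the control and 55.2 Mb in the metformin list, and the mean deposited value weighted by length was 25.5 and 30.3. The metformin list was thus longer and higher in value as a whole, and its part in the domains was not tested. In the intervals of percentages below, which are exact Clopper-Pearson 95% intervals, only counting error is covered.

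The 750 domains spanned 3.56 Mb. Their widths ran from 4000 to 10368 bp, with a median of 4509 bp and quartiles of 4202 and 4991 bp. Most were close to the limit: 185 (24.7%) were under 4.2 kb wide, 186 were 5 kb or more, 51 were 6 kb or more and 10 were 8 kb or more. Domains broad in both conditions were wider, with a median of 5026 bp. The share of metformin domains that were broad in metformin alone was lower in each wider class. It was 61.9% from 4 to 4.5 kb (372 of 601) and 51.2% from 4.5 to 5 kb (192 of 375). It was 35.8% from 5 to 6 kb (135 of 377) and 21.1% from 6 kb upwards (51 of 242). The share of control domains that were broad in control alone fell likewise, with 48.4%, 31.8%, 17.1% and 8.20% in the same classes. The fall was thus not particular to the metformin list.

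Control H3K4me3 was present in every one of the 750 domains, mostly as several shorter intervals. Since the rule admits no control interval of 4 kb, each piece had to be shorter than that, and the counts that follow describe what the rule selected. A single control interval lay in 98 domains, 2 control intervals in 386, 3 in 196 and 4 or more in 70. Hence 86.9% of the domains (652, 95% interval 84.3 to 89.3) joined control intervals that were separate. The control-only domains, measured in the same way against the metformin list, held 2 or more intervals in 81.1% of cases (317 of 391, 76.8 to 84.8). In domains broad in both, 33.7% (285 of 845) held 2 or more. That set requires a control interval of 4 kb or more. Its longest control interval had a median of 4942 bp, in domains with a median width of 5026 bp. The lower share is therefore in part set by the rule and is no unselected reference. No test of these differences was made.

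The sequence that control intervals did not cover came to 565 kb, which is 15.9% of the length of the domains. Of this, 293 kb (52.0%) lay in gaps between control intervals and 271 kb (48.0%) at the edges. In 145 domains the uncovered sequence lay in gaps alone, in 98 at edges alone, and in 507 at both. At 257 domains the metformin interval ran past the control H3K4me3 on both sides, at 348 on 1 side and at 145 on neither. In the control-only domains, gaps made up 48.1% of the 232 kb without metformin H3K4me3.

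The gaps were short. Over 1014 gaps the median length was 226 bp, with quartiles of 188 and 318 bp, and 719 gaps (70.9%) were 300 bp or shorter. The shortest was 165 bp, the same minimum as in the control-only domains and in the domains broad in both. In these sets 165 bp was also the shortest distance from a domain to the next interval of its own list. Whether the peak caller joins intervals closer than this was not tested, so shorter gaps may be hidden. In all, 356 gaps (35.1%) were 200 bp or shorter. Only 7 gaps were 1 kb or longer, and the longest was 1797 bp. Uncovered edges numbered 862, with a median of 193.5 bp and a longest of 1872 bp. Gaps in the control-only domains had a median of 217 bp over 434 gaps, and 81.8% of them were 300 bp or shorter.

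**Figure D1:**
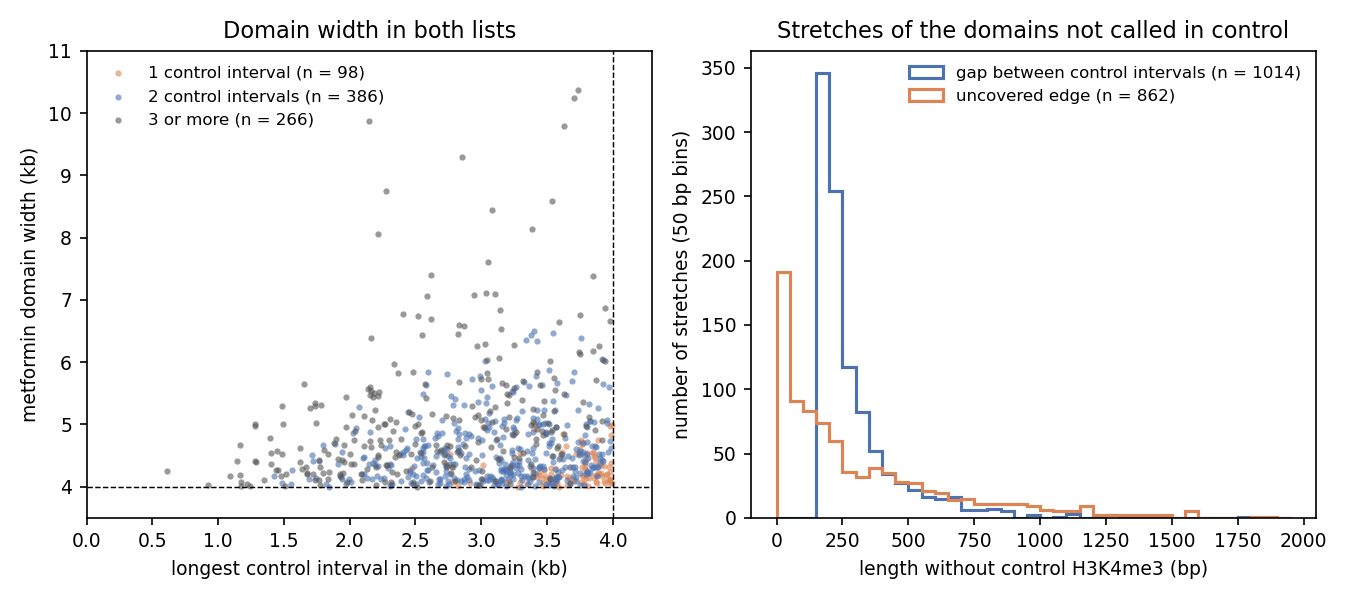
Left, width of each of the 750 domains after metformin (kb) against the longest control interval inside it (kb), coloured by the number of control intervals, with dashed lines at the 4 kb limit. Right, numbers of gaps between control intervals (n = 1014) and of uncovered edges (n = 862) by length in bp, in 50 bp bins. Domains with 1 control interval sit near the limit in both directions, and the gaps pile up between 165 and 300 bp.

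The outline of control H3K4me3, from the outer end of the first interval to that of the last, was often wide. In 516 domains (68.8%, 95% interval 65.3 to 72.1) the outer ends of the control intervals lay 4 kb or more apart. In 308 of them (41.1% of the 750) they lay at least as far apart as the metformin domain was wide. When control gaps of up to 200 bp were bridged, 183 of the 750 domains (24.4%) met a control domain of 4 kb or more. With gaps of up to 300 bp bridged the number was 407 (54.3%), with 500 bp 541 (72.1%), and with 1 kb 627 (83.6%). The remaining 123 domains had no control stretch of 4 kb even after the widest bridging. For the control-only domains the same steps on the metformin list reached 28.9%, 66.8%, 80.3% and 87.5%. The bridging distances were chosen after seeing the data.

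The control pieces of a domain were unequal. The longest control interval had a median width of 3102.5 bp and ran from 611 to 3996 bp. It was 3.8 kb or longer in 84 domains and under 2 kb in 81. The 1014 further control intervals had a median width of 697 bp, and their median deposited value of 7.69 was below that of the longest ones, 37.3. Of these further intervals 347 (34.2%) had a value under 5, and 384 (37.9%) were 1 kb or wider. At 359 domains at least 2 control intervals were 1 kb or wider, at 389 only 1 was, and at 2 none was.

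Measured against the longest control interval, the metformin domain was wider by a median of 1670.5 bp, with quartiles of 957.25 and 2358.5 bp. The gain was 1 kb or more in 550 domains (73.3%), 2 kb or more in 285, and less than 500 bp in 60. The control-only domains exceeded their longest metformin interval by a median of 1124 bp, and by 1 kb or more in 215 of 391 (55.0%). These figures use the same widths as the rule and are given as a description.

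In the 98 domains with a single control interval the metformin interval reached past it at 1 or both ends. Their median width was 4197 bp against 3752.5 bp for the control interval, and none was wider than 4991 bp. It did so on both sides in 68 and on 1 side in 30. The edges together measured a median of 673.5 bp and at most 1948 bp.

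Along a domain, control H3K4me3 was most often missing at the ends. At the outermost of 20 equal steps, control intervals covered 58.3% of the domains on the low-coordinate side and 62.8% on the other. At the steps from 32.5% to 72.5% of the width they covered between 91.1% and 94.3%. The gaps themselves were found all along the domains. Cut into 5 equal parts from the low to the high coordinate, the domains held 218, 200, 221, 183 and 192 gap centres. In the control-only domains the same parts held 113, 68, 54, 83 and 116, so the middle part had 12.4% of their gaps (95% interval 9.49 to 15.9) against 21.8% (19.3 to 24.5) in the metformin-only domains. Among domains with exactly 2 intervals of the other list the middle part held 23.8% (92 of 386) and 12.2% (27 of 221). Gaps within 1 domain share their source, and the metformin-only domains were wider, so these intervals are no test.

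**Figure D2:**
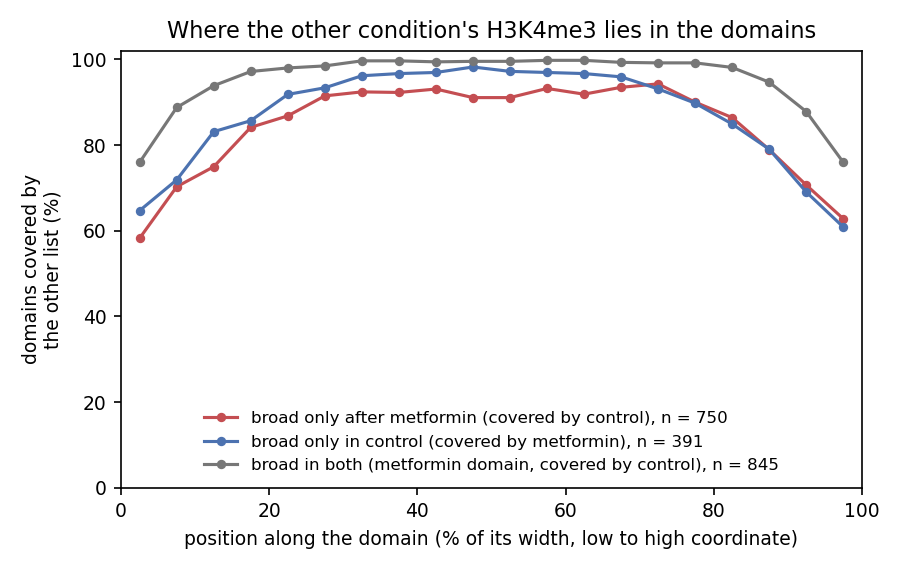
Share of domains (%) covered by the other condition's H3K4me3 intervals at 20 steps along the domain, from its low to its high coordinate (% of width). Domains broad only after metformin (n = 750) reach 94.3% at most, and those broad only in control (n = 391) reach 98.2%. Both fall towards the ends, as do domains broad in both (n = 845).

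The 10 longest domains show what the joining looked like. The longest was chr11:63991514-64001881 (hg19, as are all coordinates here), 10368 bp wide with 25 sub-peaks, the lettered summits that the peak caller lists within 1 interval. Control cells had 5 intervals there, of 328, 3733, 907, 721 and 2879 bp, which left a longest gap of 1105 bp. Their outer ends lay 10386 bp apart, so the control outline was as long as the metformin domain. Also on chromosome 11, chr11:62306489-62316726 was 10238 bp wide after metformin. It held 5 control intervals that covered 60.6% of it, with the longest gap of any domain, 1797 bp, and an uncovered edge of 940 bp on the right.

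The most divided control stretch was chr19:10526213-10536086. This domain of 9874 bp with 24 sub-peaks was met by 8 control intervals of 287 to 2145 bp, the largest number at any domain. The control intervals reached past both of its ends and left 7 gaps of 186 to 667 bp. On the long arm of the same chromosome, chr19:48892312-48901601 (9290 bp) held 6 control intervals of at most 2857 bp, with 5 gaps of 279 to 795 bp. A similar picture was seen at chr2:74775249-74783999 (8751 bp), where 6 control intervals covered 73.5%.

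At chr6:28947848-28957640 (9793 bp) control H3K4me3 lay in 5 intervals, led by 3626 bp at the left end and 3010 bp near the right. The 290, 859 and 316 bp pieces between them were separated by gaps of up to 504 bp. The domain chr17:4843628-4852211 (8584 bp) also had 2 main control intervals, of 3540 and 2968 bp, and 86.8% of it was covered in control cells. Gaps were nearly minimal at chr10:75668341-75676780 (8440 bp), at 180 to 183 bp, while its right edge ran 954 bp beyond the control H3K4me3. The domain chr17:18158716-18166846 (8131 bp) had 3 control intervals and extended 403 bp on the left and 1146 bp on the right. At chr8:145010147-145018197 (8051 bp) 5 control intervals of 415 to 2213 bp covered 85.5%. Just past its right end lay a broad control interval, chr8:145018558-145025944 (7387 bp). The first metformin interval there was 1311 bp wide, but it was not the only one over this control interval. None of the 2 broad control intervals between 145 and 146 Mb was broad only in control, so a metformin interval of 4 kb or more overlapped it too. In none of these 10 domains did a control interval reach 4 kb, as the rule requires, and none carried H3K27me3 in either condition.

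**Figure D3:**
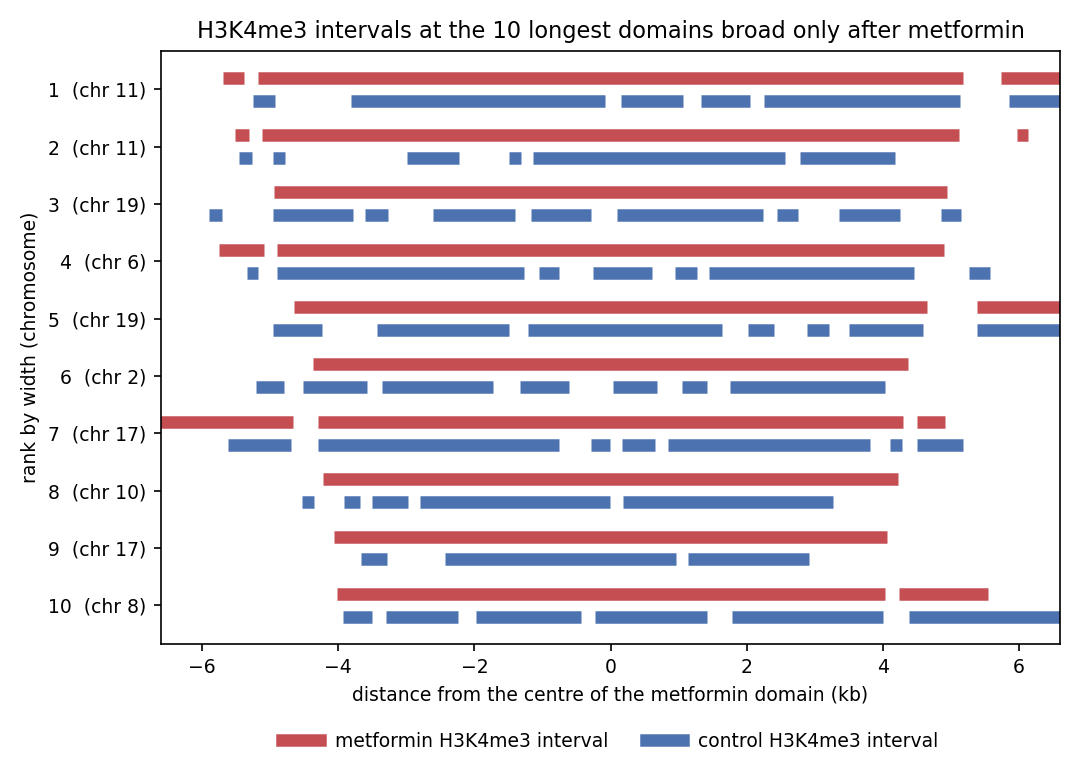
H3K4me3 intervals of the metformin (red) and control (blue) lists at the 10 longest domains, drawn to scale by distance from the centre of the metformin domain (kb), with other intervals within 1 kb. Intervals that run past 6.6 kb are cut by the axis. Each metformin domain, from 10368 bp down to 8051 bp, faces 3 to 8 control intervals.

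A few domains had little control H3K4me3. Only 5 of the 750 were covered to less than 50%, and 21 to less than 60%, whereas 266 (35.5%) were covered to 90% or more. The least covered was chr17:72206790-72211042, 4253 bp wide with a deposited value of 32.4 after metformin. Control cells had 3 intervals there, of 184, 611 and 284 bp, that made up 25.4% of it. At chr6:1605486-1609891 (4406 bp) control intervals covered 43.0%, and 1819 bp on the left had none. At chr20:60939431-60944710 (5280 bp) 2 control intervals covered 45.6%, leaving 627 bp on the left, 653 bp in a gap and 1592 bp on the right. The other two were chr11:76492924-76497593 (47.1%) and chr19:18218229-18222330 (47.1%), the latter with 1564 bp uncovered on its left. Each of these 5 domains held 2 or 3 control intervals, the longest of 611 to 2072 bp.

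The values of the domains within the metformin list were high but not the highest. Their median −log10 q was 47.6 (quartiles 36.4 and 60.1), against 54.8 for domains broad in both. Among all 53454 metformin intervals the median percentile of the 750 values was 93.1, and 480 domains (64.0%) were in the upper 10%. The value of an interval is the highest over its sub-peaks, and 35869 of all metformin intervals were under 1 kb wide. The rank is therefore not independent of the width rule, and no class of like width was ranked beside the domains. The 750 domains held a median of 12 sub-peaks, or 2.58 per kb, close to the 2.72 per kb of domains broad in both. The longest domains did not have the highest values: the 10 longest had values of 28.3 to 58.5, and the domain with the highest value of all was 4289 bp wide.

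Of the 5 domains with the highest values, 4 lay on chromosome 19. They were chr19:37567510-37571798 (−log10 q 159), chr19:37707297-37712384 (137), chr19:37741290-37745910 (129) and chr19:36702553-36708738 (124). The other was chr12:54718908-54723864 (129). The first of them was 4289 bp wide and faced 1 control interval of 3792 bp, which it exceeded by 443 bp on the left and 54 bp on the right. At chr19:37707297-37712384 the control intervals covered 64.4% and 1331 bp on the right were uncovered. The chromosome 12 domain faced 3 control intervals of at most 3025 bp, and its uncovered sequence came to 440 bp. In all, 16 domains had a value of 100 or more, 11 of them on chromosome 19. Among the 845 domains broad in both, 34 had such a value. Their chromosomes were not counted. Whether high values on chromosome 19 were particular to domains broad only after metformin was therefore not tested.

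Close to the limits the rule separated nearly identical intervals. The narrowest domain, chr16:2055416-2059415, was 4000 bp wide, and the widest intervals that missed the limit were chr11:27525954-27529952 and chr2:219154107-219158105, at 3999 bp each. On the control side, chr5:133557730-133561783 counted as broad only after metformin because its control interval was 3996 bp wide, with 58 bp of difference from 4054 bp. The domain chr1:155176711-155181147 did not count, because its control interval was 4000 bp wide.

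The domains lay on chromosomes 1 to 22 and X. Chromosome 6 held 66 of them, chromosomes 2 and 19 held 65 each, and chromosome 21 held 3. As a share of the metformin domains of 4 kb or more on a chromosome, they ranged from 37.1% on chromosome 6 (66 of 178, 95% interval 30.0 to 44.6) to 60.9% on chromosomes 11 (39 of 64) and 16 (28 of 46). The interval lay above the overall 47.0% on 2 chromosomes, among them 11 (47.9 to 72.9), and below it on chromosome 6 alone. With 23 chromosomes compared, this is a description. Per 1000 metformin intervals, chromosome 8 had 25.2 of the domains and chromosome 6 had 20.5, against a median of 12.7. These rates are not corrected for the number of metformin domains of 4 kb or more of any kind. Those numbered 94 of 2027 intervals on chromosome 8 and 178 of 3214 on chromosome 6, against 1595 of 53454 in all.

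**Figure D4:**
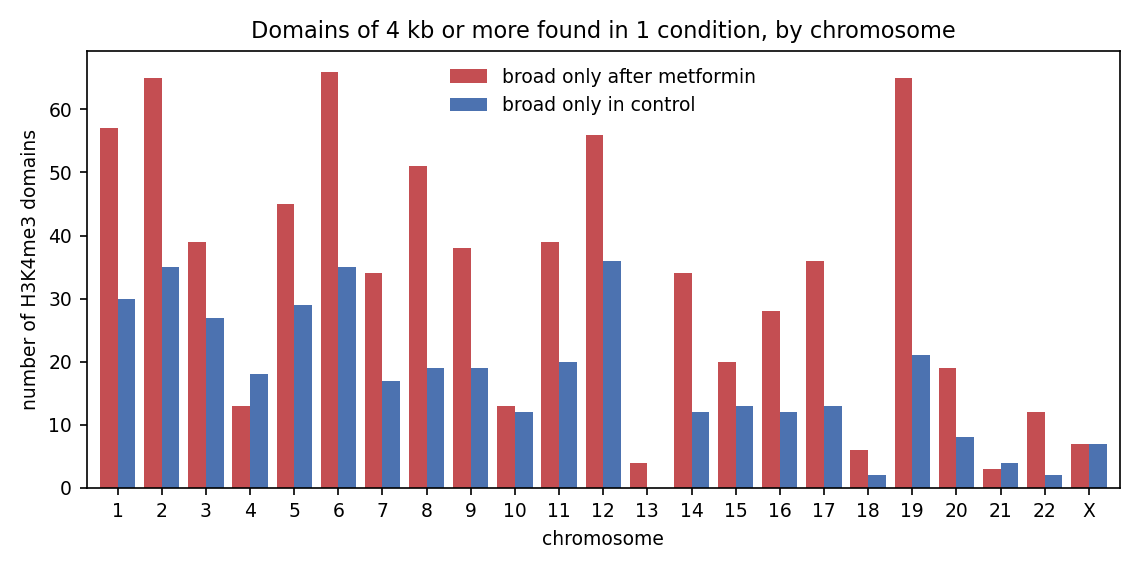
Number of H3K4me3 domains of 4 kb or more found only after metformin (red) and only in control (blue) on each chromosome. Metformin-only domains are the more numerous on 20 of 23 chromosomes, control-only domains on chromosomes 4 and 21, and chromosome X has 7 of each.

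Domains broad only after metformin outnumbered those broad only in control on 20 of 23 chromosomes. On chromosome 19 they numbered 65 and 21, on chromosome 8 51 and 19, on chromosome 17 36 and 13, and on chromosome 22 12 and 2. Chromosome 4 went the other way, with 13 and 18, as did chromosome 21, with 3 and 4. The 750 domains were scattered over 547 bins of 1 Mb, of which 417 held 1 domain and 18 held 4 or more.

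The densest bins were on the long arm of chromosome 19, which is known for its clusters of KRAB zinc finger genes. Between 36 and 37 Mb, 9 of 14 metformin domains were broad only after metformin, and none of 5 control domains was broad only in control. Between 37 and 38 Mb the numbers were 6 of 14 and 2 of 10, and between 45 and 46 Mb 6 of 11 and 0 of 5. On chromosome 8, the bin from 145 to 146 Mb held 6 of 8 and 0 of 2. On chromosome 12, the bin from 56 to 57 Mb held 6 of 6 and 2 of 2. In band 6p22, home of the main histone gene clusters, 5 of 10 metformin domains between 27 and 28 Mb were broad only after metformin and 4 of 9 control domains only in control. Between 26 and 27 Mb the numbers were 4 of 10 and 3 of 9. In these 6p22 bins, domains were broad in 1 condition alone in both directions. Over all chromosomes the shares were 47.0% and 31.6%, and no bin was tested against them.

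H3K27me3 was seldom found on the domains. This mark did not enter the rule. In control cells 19 of the 750 domains were overlapped by H3K27me3 (2.53%, 95% interval 1.53 to 3.93), and after metformin 26 (3.47%, 2.28 to 5.04). Among all 53454 metformin H3K4me3 intervals the shares were 3.39% in control and 4.55% after metformin, and both lie inside the intervals of the 750 domains. The share over the domains was thus near that background. Metformin H3K4me3 intervals of 3 to 4 kb, the next width class down, were overlapped at 1.89% and 3.23%, which also lie inside those intervals. Domains broad in both had lower shares, 0.710% (6 of 845, 0.261 to 1.54) and 1.18% (10 of 845, 0.569 to 2.17). For the control-only domains the counts were 5 and 1 of 391. No test of these differences was made, and the sets differ in width.

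Counting the overlaps, H3K27me3 lay within 5 kb of 60 domains in control (8.0%) and of 71 after metformin (9.47%). Over all metformin H3K4me3 intervals the shares were 12.3% and 14.3%, and over those of 3 to 4 kb they were 7.64% and 9.45%, close to the values of the domains. For domains broad in both these shares were 4.02% and 4.38%, and for control-only domains 3.07% and 4.60%. The median distance to the nearest H3K27me3 interval was 76.8 kb in control and 70.1 kb after metformin, against 77.3 and 67.6 kb over all metformin H3K4me3 intervals. Thus most of the domains were far from the mark in both conditions. These differences between sets were not tested.

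Where H3K27me3 met the domains it covered more of them after metformin. In all, 18.5 kb lay under H3K27me3 in control and 34.0 kb after metformin. Of the 30 domains with the mark in either condition, 15 had it in both, 11 after metformin alone and 4 in control alone. The overlap was longer after metformin in 23 and longer in control in 7. The whole H3K27me3 list also covered more sequence after metformin, 93.3 Mb against 85.5 Mb. The same direction was seen in domains broad in both, where the length went from 6.85 to 16.2 kb and was longer after metformin in 8 of 10. The control-only domains went the other way, from 0.99 kb in control to 0.293 kb after metformin. All 5 of them with the mark had the longer overlap in control. Of the metformin overlap on the metformin-only domains, 33.9% lay on sequence without control H3K4me3, which made up 23.8% of the 26 domains concerned. For the control overlap the share was 20.6%, against 23.1% of the 19 domains concerned. The deposited values of the H3K27me3 intervals concerned ran from 1.14 to 2.53 in control and from 1.20 to 2.52 after metformin. Their medians, 1.63 and 1.60, were near those of the whole H3K27me3 lists, 1.512 and 1.505.

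**Figure D5:**
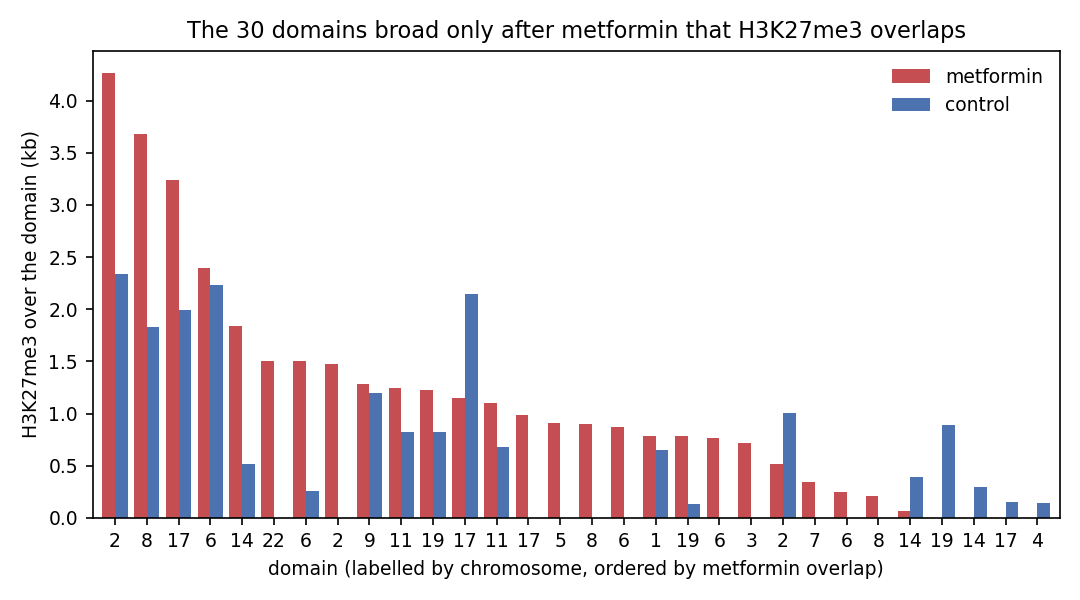
Length under H3K27me3 (kb) in the metformin (red) and control (blue) lists for each of the 30 domains that the mark overlapped, labelled by chromosome and ordered by the metformin value. The overlap reaches 4265 bp after metformin and 2337 bp in control, and 23 domains have the longer overlap after metformin.

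The longest overlap was at chr2:136872431-136877421, a domain of 4991 bp with 1 control H3K4me3 interval of 3995 bp. H3K27me3 covered 2337 bp of it in control and 4265 bp after metformin, while the metformin H3K4me3 interval reached 884 bp further on the left and 112 bp further on the right. At chr8:70744048-70749320 (5273 bp) H3K27me3 spanned 1831 bp of the domain in untreated and 3677 bp in treated cells, and 4 control H3K4me3 intervals faced the 1 of metformin. At chr17:47571553-47575600 (4048 bp) it covered 1994 and 3241 bp, with 654 bp of the domain in a control gap. At chr6:170598946-170605382 (6437 bp) the lengths were nearly equal, at 2237 and 2399 bp. The domain chr17:48044702-48048877 (4176 bp) went the other way, with 2142 bp in control and 1152 bp after metformin. Thus 4 of the 5 longest overlaps were longer after metformin.

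Most of the domains had further H3K4me3 close by. Another metformin interval lay within 1 kb of 517 domains (68.9%), on both sides of 190, and the median distance was 366 bp. Domains broad in both had a neighbour within 1 kb in 83.7% of cases. Control-only domains had a control interval within 1 kb in 71.4%, at a median distance of 384 bp, close to the values of the 750. The domains seldom lay next to each other: 18 (2.40%) had another of the 750 within 10 kb. Within their own sets this share was 5.21% for domains broad in both and 1.02% for control-only domains, and the sets differ in number. The closest pair of the 750 was chr6:33168683-33173673 and chr6:33173924-33178012, 250 bp apart.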

How the data were processed

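The deposited peak lists of 4 ChIP-seq libraries were used, 1 per mark (H3K4me3, H3K27me3) and condition (control, 5 mM metformin). Neither of the 2 input libraries was used here. Per the submitters' processing notes, Trimmomatic 0.38, Bowtie, MACS2 and the build hg19 (GRCh37) were used by the authors. Caller options and the background library: not given in the sources used here. The deposited value of each peak was taken to be −log10 q. No header says so, and the reading rests on the smallest values. These were 1.31 in both H3K4me3 lists, and 1.01 (control) and 1.00 (metformin) in the H3K27me3 lists, so the marks had unlike floors. It is the authors' value, and ranks and filters were applied within a list only. Where values of different lists are printed side by side, they describe the lists and are no comparison of signal, since depth is unknown.

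Lines with the same interval were joined and kept their highest value. Width is end minus start, and printed coordinates are 1-based. Overlap means 1 bp or more. Each domain was compared with the other list's intervals for the number, length, gaps and edges. The members, lists and named regions were chosen with earlier results of these data known. The named regions are the 10 longest, the 5 least covered, the 5 with most control intervals, the 5 with the highest value, the 5 with the longest H3K27me3 overlap and the 3 nearest each side of a limit, of which some are printed. Planned counts of transcription starts, gene lists and base composition were not run, since the gene table is on GRCh38.p14 and positions were not converted. No fit across features and no p-value was computed.

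The code was tested on simulated data, where the status, gaps and edges of 100% of 1595 domains were recovered, and 2 counts equalled those of bedtools 2.31.1. Python 3.11.15, pandas 2.3.3, numpy 2.4.6, scipy 1.17.1 and matplotlib 3.10.9 were used.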

Additional observations from a re-analysis of the deposited data

How the results depend on the processing

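No paired analysis was possible because each mark had a single library in each condition, and no library could be left out. The order of values is number of domains, median share covered by control, share with 2 or more control intervals, and shares with H3K27me3 in control and after metformin. The main values were 750, 86.1%, 86.9%, 2.53% and 3.47%. With a limit of 3 kb the number was 1580, with 82.8% covered and 82.3% joined. With 5 kb it was 323, with 89.1% and 89.8%. With intervals within 1 kb merged first it was 1974, with 68.4%, 19.4%, 10.7% and 14.1%. Merging closes gaps and widens intervals by construction, which bears on all of these values. Metformin intervals of 4 kb or more then numbered 6778 in place of 1595. At a deposited value of 5 or more the 750 domains were 83.8% covered and 68.3% joined, because low-valued control pieces drop out. A gain of 1 kb or more left 550 domains, 84.7% covered and 97.3% joined. Bridging control gaps, added after seeing the data, left at 200 bp 567 domains with 84.0% covered and 83.2% joined. At 300 bp it left 343 domains with 80.9%, 75.5% and, after metformin, 5.83% H3K27me3. At 500 bp it left 209 domains with 78.2%, 67.5% and 6.22%. At 1 kb it left 123 domains with 77.8%, 59.3%, 4.07% in control and 7.32% after metformin. H3K27me3 within 1 kb was found at 4.0% and 5.2%, and another of the domains within 50 kb at 10.1% in place of 2.40% within 10 kb. Lists of equal length and the value limit of 5 left out no broad domain, so they do not test the number. Metformin-only domains outnumbered control-only domains 1.92 times, and 1.93 to 2.56 times under the 5 alternatives that changed the counts (3 kb, 5 kb, merging, overlap over 50%, gain of 1 kb). Transcription starts near the domains were not run, as the gene table is on another build. Depth is unknown, so no limit of detection can be given for the gaps. The cause of these changes was not tested unless named.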

Other observations

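Domains that were broad in opposite conditions could lie side by side. A control-only domain lay within 10 kb of 10 of the 750 metformin-only domains and within 1 kb of 2. At chr9:130324502-130331104, 6603 bp wide after metformin with control intervals of at most 2828 bp, the control-only domain chr9:130319947-130324353 (4407 bp) ended 148 bp away and faced 2 metformin intervals of at most 2844 bp. At chr9:132255425-132259551 (4127 bp) the control-only domain chr9:132251008-132255239 (4232 bp) ended 185 bp away. The least covered domain, chr17:72206790-72211042, had a control-only domain of 4993 bp at 1975 bp, which faced 2 metformin intervals of at most 2972 bp. These pairs were named after their values were seen.

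Among the 30 domains with H3K27me3 in either condition, control H3K4me3 covered a median of 80.0% of the width, against 86.2% in the other 720. The 2 groups share the same lists, and the difference was not tested.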
